A study of Mus musculus with 4 samples.

Results

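The genes described here are 44 interferon-stimulated genes and regulators of the interferon response, named in a list and found by symbol among 52476 gene names. All 44 were in the table, and 43 reached 1 FPKM in at least 1 library. The exception was Ifi44l, listed at 0 in 3 libraries and at 0.036 FPKM in the knockout at 0 h. FPKM scales the fragments of a gene by transcript length and library size, so levels of different genes can be compared per length. RNA-seq was performed on macrophages grown from mouse bone marrow for 7 days with M-CSF at 20 ng/mL, the growth factor that drives macrophage differentiation. The 4 groups were wild type (WT) cells at 0 h, WT cells after 24 h with IL-4 at 20 ng/mL, OGT knockout cells at 0 h, and OGT knockout cells after 24 h with the same IL-4. OGT adds a single sugar, N-acetylglucosamine, to serines and threonines of proteins inside the cell. The way OGT was deleted and the age, sex and strain of the mice are not given in the labels.

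Each group held 1 library. No difference could therefore be set against the spread between cultures, and every count below describes these 4 libraries. The treatment tag of the 0 h samples is the same as that of the others, and they were taken as untreated because of their time. The labels hold no untreated culture of the later time, so an effect of IL-4 and an effect of time in culture cannot be told apart. In RNA from bulk cultures, fewer cells of a type and less RNA per cell cannot be told apart either.

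Type I interferons act through a receptor made of the chains encoded by Ifnar1 and Ifnar2. Receptor kinases activate STAT proteins, among them STAT2, which works with IRF9 in a complex that binds a DNA element called the interferon-stimulated response element (ISRE). The genes switched on in this way restrict viruses at many steps, sense foreign RNA, and include IRF7 and STAT2 themselves, which amplify the response. Macrophages keep a low tonic level of this programme without infection. IL-4 signals through another STAT protein, STAT6, and drives the alternative activation of macrophages.

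Library totals ranged from 338704 to 353093 FPKM. Ogt itself stood at 27.4 FPKM for WT and 14.2 for the knockout before IL-4, and at 29.8 and 14.5 after 24 h of it, so Ogt transcripts were still counted in the knockout. Retnla, a standard target of IL-4, went from 2.17 to 12961 FPKM in WT and from 2.23 to 14904 in the knockout. All 10 macrophage markers were detected, with Csf1r between 610.0 and 885 FPKM, and 5 of them in WT and 6 in the knockout were 2-fold lower after IL-4. Of 10 markers of plasmacytoid dendritic cells, which are known for making interferon, 3 reached 1 FPKM, and the list summed to 5.15 to 8.30 FPKM. Siglech, the defining marker of these cells, stayed between 0.17 and 0.66 FPKM. Neutrophil markers were present, 11 of 12 at 1 FPKM or more, and summed to 3375 (WT) and 2185 FPKM (knockout) at 0 h and to 1097 and 737 at 24 h. S100a9 made up 1769 and 1084 FPKM of the 0 h sums, and Ly6g did not exceed 0.65 FPKM. In each genotype 9 of 11 were lower after IL-4, beside 48.0% (WT) and 47.3% (knockout) of all genes. Cxcr2 and Mmp8 were higher in both. Of 9 monocyte markers 8 were detected, and 4 of 8 kept in WT and 2 of 7 in the knockout were 2-fold lower after IL-4, while the sum went from 408 to 1773 FPKM in WT and from 231 to 1187 in the knockout, of which Chil3, itself a target of IL-4, made up 1738 and 1164 FPKM at 24 h. Of 8 B cell markers 2 were detected, Ighm and Cd79b, and the list summed to 132 and 161 FPKM at 0 h and to 13.9 and 17.2 at 24 h. Of 10 T and NK cell markers 2 were detected, Cd4 and Nkg7, with sums of 27.2 and 20.1 FPKM at 0 h and 4.32 and 2.72 at 24 h, and Cd3e did not exceed 0.023 FPKM. Of 8 fibroblast markers 4 reached 1 FPKM in a library, and the list summed to 14.2 FPKM for WT and 8.27 for the knockout at 0 h and to 6.65 and 5.14 at 24 h. Cd4 made up 24.6 (WT) and 18.8 FPKM (knockout) of the T and NK cell sums at 0 h. Macrophage, plasmacytoid dendritic cell, neutrophil, B cell, T and NK cell and fibroblast sums were thus lower at 24 h in both genotypes. So were the interferon-stimulated genes. The part of these cell types in the results was not tested. The small RNA gene Gm23935 stood at 205 FPKM in the knockout at 24 h and at 57.7 to 69.9 in the other libraries.

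After 24 h of IL-4 the interferon-stimulated genes were lower in both genotypes. In WT all 43 genes kept had negative differences, where 48.0% of all 11687 genes tested did, and 33 were at least 2-fold lower, where 6.26% of all genes were. None was 2-fold higher, where 4.76% of all genes were. In the knockout all 43 were again negative, against 47.3% of 11577 genes, 39 were at least 2-fold lower, against 5.99%, and none 2-fold higher, against 5.16%. A difference here is the log2 ratio of FPKM + 1, a scale that understates changes of genes near 1 FPKM, and 2-fold is a log2 difference of 1. The median over the genes was −1.70 in WT and −1.92 in the knockout, beside 0.02 and 0.03 over all genes tested. The median level of the 43 genes was 27.1 (WT) and 32.8 FPKM (knockout) before IL-4, and 6.38 and 7.23 after it. Of the 43, 5 were under 1 FPKM at 24 h in WT and 5 in the knockout. These had passed the filter through 0 h alone and could only be lower.

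**Figure D1:**
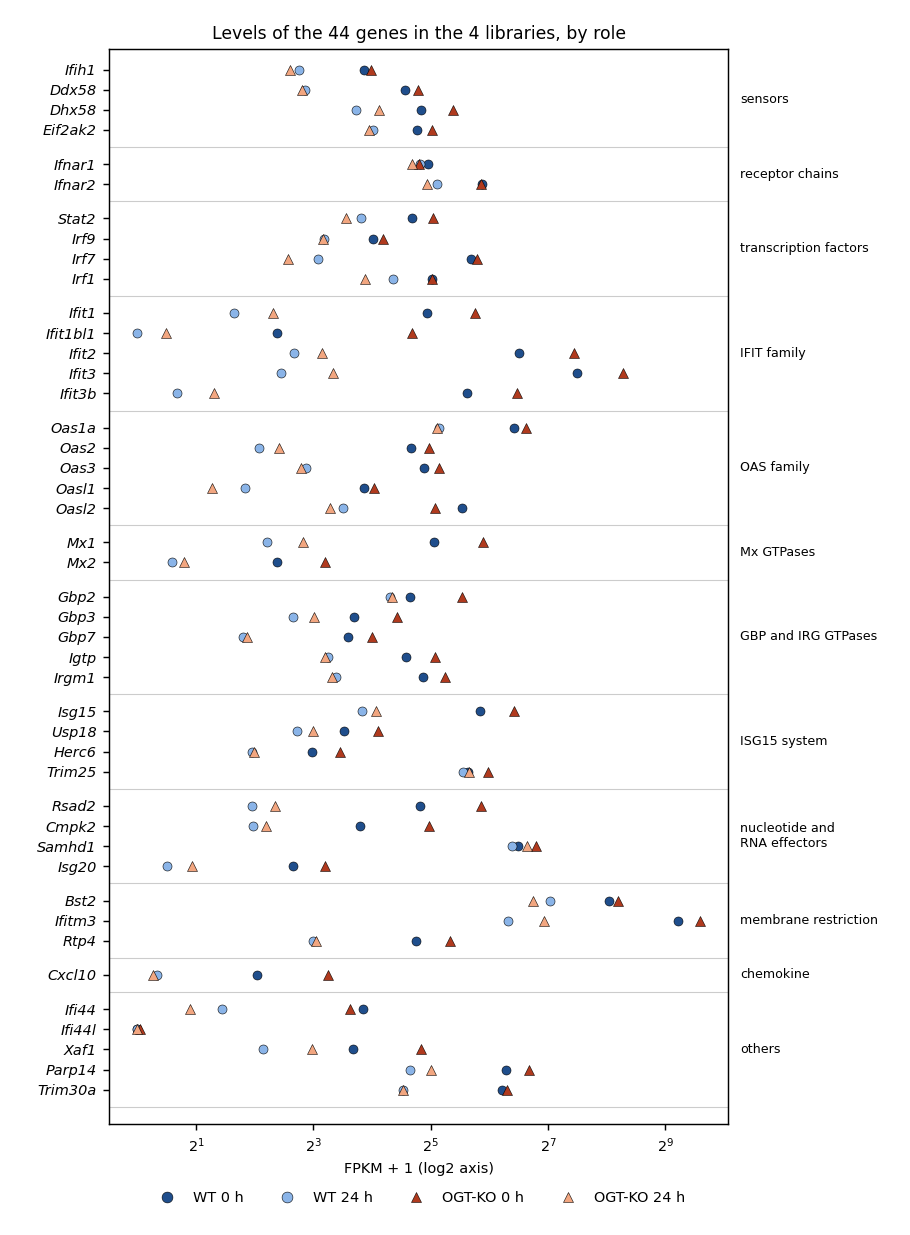
FPKM + 1 on a log2 axis for each of the 44 genes in the 4 libraries (1 point a library), grouped by role: circles are WT, triangles the OGT knockout, dark points 0 h and light points 24 h. The 24 h points lie to the left of the 0 h points of the same genotype for all 43 genes kept, furthest in the IFIT family and least for Ifnar1, Samhd1 and Trim25.

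The same genes were lower in each genotype. All 33 that passed 2-fold in WT also passed it in the knockout, which is 84.6% of the 39 lower there; 4.41% of all genes kept in both were 2-fold lower in both. The other 6 were Eif2ak2, Gbp2, Irf1, Irf9, Stat2 and Usp18, which passed in the knockout, while their WT differences lay between −0.87 and −0.33. This group depends on the settings. With a pseudocount of 5, 10 genes passed in the knockout alone, of which only Stat2 and Gbp2 are among these 6, and at 1.5-fold Gbp2 alone did. With a filter at 5 FPKM 9 did, since Ifit1bl1, Mx2 and Cxcl10 were no longer kept in WT. Ifnar1, Ifnar2, Samhd1 and Trim25 passed in neither. The WT and knockout responses share no library, and over the 43 genes they had a Pearson r of 0.95, beside 0.89 over 11264 genes. The points are genes and not independent replicates, so this r is a description.

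**Figure D2:**
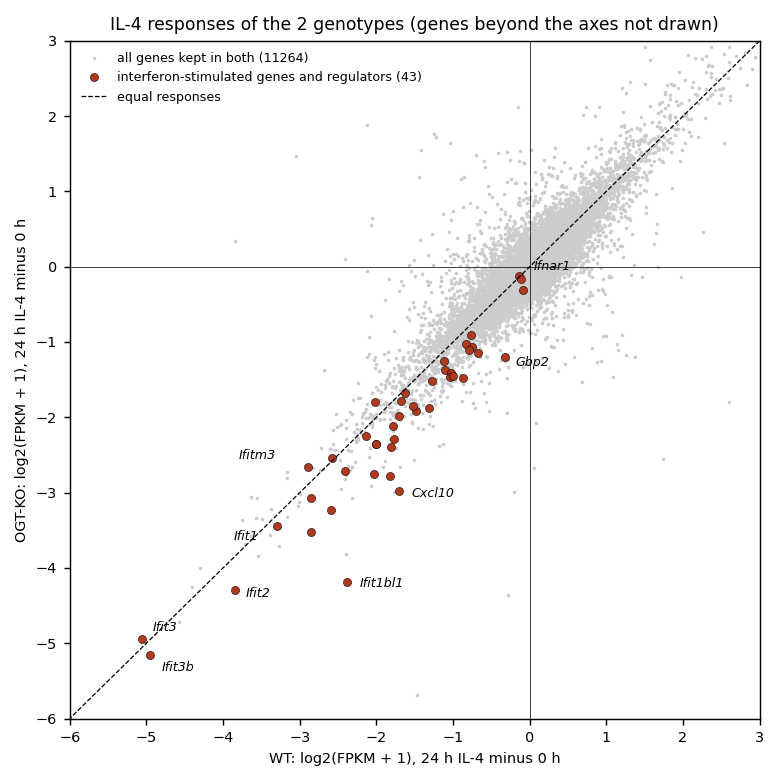
IL-4 response (24 h minus 0 h, log2 of FPKM + 1) of each gene in WT (x) against the OGT knockout (y); grey points are all genes kept in both, red points the 43 interferon-stimulated genes and regulators, and the dashed line marks equal responses. Of the red points 38 lie below the dashed line. Ifit1bl1 was listed at 0 FPKM in WT at 24 h, so its x value rests on the pseudocount.

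Neither receptor chain gene passed 2-fold in any comparison. Ifnar1 was at 30.0 FPKM before and 27.3 after IL-4 in WT, and at 26.7 before and 24.5 after in the knockout, a span of 24.5 to 30.0 over all 4 libraries. Ifnar2, the other chain, was at 57.5 (WT) and 56.9 FPKM (knockout) before IL-4 and at 33.3 and 29.7 FPKM after it. Its 24 h levels were 57.9% and 52.3% of those at 0 h, short of 2-fold in each genotype, and the genotypes were within 0.16 of each other on the log2 scale at both times. Exons of Ifnar2 overlap those of the annotated gene Gm21970.

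The transcription factor genes were lower after IL-4, and by more in the knockout. Irf7, which encodes the factor that amplifies interferon production, was at 50.5 FPKM for WT and 54.5 for the knockout before IL-4, and at 7.501 and 4.91 after 24 h of it (WT response −2.60, knockout response −3.23). Its 0 h levels were close, and at 24 h the knockout held 0.655 of the WT level. Stat2, a subunit of the ISRE-binding complex, was at 24.7 FPKM before and 13.05 after IL-4 in WT, and at 31.8 before and 10.8 after in the knockout. At 0 h the knockout was the higher of the 2 genotypes (log2 0.35), and at 24 h it was the lower (−0.25). Irf9, the DNA-binding subunit of the same complex, was at 15.3 (WT) and 17.3 FPKM (knockout) before IL-4 and at 8.12 and 8.01 FPKM after it, with the genotypes nearly equal at 24 h. Irf1, which encodes a factor shared by the interferon and inflammatory responses, was at 31.5 FPKM for WT and 31.6 for the knockout before IL-4, and at 19.4 and 13.8 after 24 h of it. The 0 h levels of Irf1 differed by 0.1 FPKM, while at 24 h the knockout was the lower (log2 −0.46). All 4 genes had a larger negative response in the knockout, by 0.19 to 0.63 on the log2 scale, and 1 of 4 passed 2-fold in WT and 4 of 4 in the knockout. These counts depend on the settings: with a pseudocount of 5 they were 1 and 2, and at 1.5-fold 4 and 4. Irf7 and Irf1 share exon positions with Phrf1 and Gm17334 on the other strand, and the counting is not stated to use strand, while Irf9 shares them with Rnf31 on the same strand, so the values of all 3 are less certain. In all, 15 of the 44 genes share exon positions with another annotated gene, and 8 share 10% or more of their 50-base stretches with other genes.

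The sensors of foreign RNA were lower too. Ddx58, which encodes RIG-I, was at 22.7 FPKM before and 6.29 after IL-4 in WT, and at 26.7 before and 5.997 after in the knockout. Ifih1, which encodes MDA5, was at 13.5 (WT) and 14.8 FPKM (knockout) before IL-4 and at 5.72 and 5.09 FPKM after it. Dhx58, which encodes their relative LGP2, was at 27.6 FPKM for WT and 40.4 for the knockout before IL-4, and at 12.2 and 16.3 after 24 h of it, and was higher in the knockout at both times (log2 0.53 and 0.39). The levels of Ddx58 and Ifih1 at 24 h lay between 22.5% and 42.3% of those at 0 h and were close between genotypes. Eif2ak2, which encodes the RNA-activated kinase PKR that halts translation, was at 26.3 FPKM before and 15.2 after IL-4 in WT, and at 31.5 before and 14.5 after in the knockout. Of the 4 sensors, 3 passed 2-fold lower in WT and 4 in the knockout, against 1 and 2 with a pseudocount of 5.

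The IFIT family, whose proteins bind viral RNA and block its translation, held the 4 largest negative responses in each genotype. Its 5 genes lie together on chromosome 19 (34550694 to 34650009, GRCm38). Ifit3 (ENSMUSG00000074896) was at 180.2 (WT) and 309 FPKM (knockout) before IL-4 and at 4.43 and 9.12 FPKM after it. Its 24 h level was 2.46% of that at 0 h in WT (log2 −5.06) and 2.95% in the knockout (−4.94). Ifit3b, its near copy, was at 48.3 FPKM for WT and 87.2 for the knockout before IL-4, and at 0.60 and 1.48 after 24 h of it. Ifit2 was at 90.4 FPKM before and 5.35 after IL-4 in WT, and at 173 before and 7.86 after in the knockout, with responses of −3.85 and −4.30. Ifit1, which recognises the cap of viral RNA, was at 29.7 (WT) and 53.0 FPKM (knockout) before IL-4 and at 2.12 and 3.97 FPKM after it, or 7.12% and 7.50% of the 0 h level. Ifit1bl1, another relative of Ifit1, was at 4.198 (WT) and 24.5 FPKM (knockout) before IL-4, and was listed at 0 in WT and at 0.41 in the knockout at 24 h.

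In all 5 IFIT genes the knockout was above WT at 0 h. The knockout to WT ratio of FPKM was 1.78 for Ifit1, 1.91 for Ifit2, 1.72 for Ifit3, 1.80 for Ifit3b and 5.85 for Ifit1bl1. At 24 h it remained 1.88 for Ifit1, 1.47 for Ifit2 and 2.06 for Ifit3, at much lower levels. Of 50-base stretches in Ifit3 transcripts, 51.2% also occur in Ifit3b, so reads of the pair could have been divided between them in either way. Their summed level was 229 (WT) and 396 FPKM (knockout) before IL-4, and 5.03 and 10.6 after it, which gave the same order as each gene alone. Ifit1 and Ifit1bl1 shared 7.13% and 6.45% of such stretches with other genes, mostly with Ifit1bl2.

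The promoters of 3 IFIT genes are shown because they hold the letters of the ISRE as a pair close together. The letters searched were TTTC, any pair of bases, and TTTC again, on both strands. The stretches come from RefSeq (GRCm38.p6), end at the base before the annotated start, and are printed 5′ to 3′ in lower case with matches in capitals. Those of Ifit3 (chr19:34583329-34583528, + strand), Ifit3b (chr19:34607757-34607956, + strand) and Ifit1 (chr19:34640769-34640888, + strand) read:
Ifit3: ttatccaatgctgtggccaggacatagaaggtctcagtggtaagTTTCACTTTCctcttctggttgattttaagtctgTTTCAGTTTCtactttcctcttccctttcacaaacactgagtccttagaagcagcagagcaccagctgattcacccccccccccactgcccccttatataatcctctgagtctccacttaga
Ifit3b: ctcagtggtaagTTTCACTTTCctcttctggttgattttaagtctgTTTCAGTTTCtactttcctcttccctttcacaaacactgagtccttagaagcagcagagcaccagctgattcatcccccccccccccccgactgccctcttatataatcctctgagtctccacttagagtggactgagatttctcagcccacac
Ifit1: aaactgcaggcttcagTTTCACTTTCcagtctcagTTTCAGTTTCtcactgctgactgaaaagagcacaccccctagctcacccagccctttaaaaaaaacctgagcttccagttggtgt
In an alignment of the 250 bases before each start, 216 of 218 aligned bases were identical between Ifit3 and Ifit3b. Ifit1bl1 also holds the letters, once in each of its 2 windows. Neither window of Ifit2 holds them.

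The OAS family makes short adenylate chains that activate an RNA-degrading enzyme, and OASL proteins are its relatives. All 5 family members among the genes described here were at least 2-fold lower at 24 h in both genotypes. Their medians were −2.02 in WT and −2.35 in the knockout. On the separate list of other interferon-stimulated genes given below, Oas1b and Oas1g also passed in both genotypes. Oas1c, on the same list, passed in neither (−0.47 in WT and −0.91 in the knockout). Oas2 was at 24.3 FPKM for WT and 30.3 for the knockout before IL-4, and at 3.23 and 4.36 after 24 h of it. Oas3 was at 28.6 FPKM before and 6.38 after IL-4 in WT, and at 34.1 before and 5.88 after in the knockout. Oas1a was at 84.3 (WT) and 98.002 FPKM (knockout) before IL-4 and at 34.2 and 33.6 FPKM after it, and kept the highest 24 h level of the family. Oasl1, which in mouse restrains translation of Irf7, was at 13.5 FPKM for WT and 15.4 for the knockout before IL-4, and at 2.57 and 1.43 after 24 h of it, and at 24 h the knockout was at 0.556 of the WT level. Oasl2 was at 45.1 FPKM before and 10.3 after IL-4 in WT, and at 32.8 before and 8.70 after in the knockout, and had the most negative genotype difference of the 43 genes at 0 h (log2 −0.45). The family thus differed less between genotypes than the IFIT genes, from −0.45 to 0.31 at 0 h against 0.78 to 2.30. Oas1a shares 57.6% of its 50-base stretches with Oas1g, and the pair summed to 117 and 136 FPKM at 0 h and to 47.8 and 46.6 at 24 h, in WT and the knockout. The promoter of Oas3 (chr5:120777660-120777759, − strand) is shown as the example from this family, with a single match on the other strand:
Oas3: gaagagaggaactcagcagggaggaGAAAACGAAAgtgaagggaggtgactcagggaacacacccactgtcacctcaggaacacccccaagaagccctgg

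Mx1 and Mx2 encode dynamin-like GTPases that block viral nucleocapsids and lie next to each other on chromosome 16 (97447035 to 97560900). Mx1 was at 32.3 (WT) and 58.4 FPKM (knockout) before IL-4 and at 3.60 and 6.06 FPKM after it. Mx2, annotated as a polymorphic pseudogene, was at 4.24 FPKM for WT and 8.13 for the knockout before IL-4, and at 0.50 and 0.74 after 24 h of it. At 0 h the knockout was 1.81 and 1.92 times as high as WT, beside 1.72 to 1.91 times for the IFIT genes other than Ifit1bl1.

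The GTPases of the GBP and IRG families attack vacuoles that hold pathogens and respond to interferon gamma as well as to type I interferon. Of the 5 among the genes described here, 4 were 2-fold lower in WT and 5 in the knockout. Of the GBP genes on the separate list given below, Gbp5, Gbp6 and Gbp9 passed in both genotypes. Gbp8 passed in neither (−0.33 in WT and −0.54 in the knockout). Gbp4 was kept in the knockout alone and did not pass there (−0.92). Of the 5, Gbp2 differed most between genotypes in its response. It was at 23.9 FPKM before and 18.8 after IL-4 in WT, and at 45.3 before and 19.2 after in the knockout. The knockout was thus 1.89 times as high as WT at 0 h and 1.022 times at 24 h, so its response was −0.33 in WT and −1.19 in the knockout. Gbp3 was at 11.9 (WT) and 20.6 FPKM (knockout) before IL-4 and at 5.33 and 7.07 FPKM after it. Gbp7 was at 11.04 FPKM for WT and 14.9 for the knockout before IL-4, and at 2.49 and 2.67 after 24 h of it, with knockout to WT ratios of 1.35 at 0 h and 1.07 at 24 h. The immunity-related GTPase gene Igtp was at 22.8 FPKM before and 8.57 after IL-4 in WT, and at 32.8 before and 8.18 after in the knockout. Irgm1, which encodes a regulator of that family, was at 28.2 (WT) and 36.8 FPKM (knockout) before IL-4 and at 9.46 and 9.01 FPKM after it. All 5 were above WT in the knockout at 0 h (log2 0.37 to 0.89), and at 24 h they lay within −0.06 and 0.35. Gbp7 and Igtp share 12.7% and 11.8% of their 50-base stretches with other genes. The promoters of Gbp2 (chr3:142620583-142620662, + strand) and Gbp3 (chr3:142559964-142560043, + strand), neighbours on chromosome 3, are shown because each holds the ISRE letters within 60 bases of its start; in Gbp3 a pair of matches overlap:
Gbp2: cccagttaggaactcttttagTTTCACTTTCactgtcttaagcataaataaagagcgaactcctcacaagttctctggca
Gbp3: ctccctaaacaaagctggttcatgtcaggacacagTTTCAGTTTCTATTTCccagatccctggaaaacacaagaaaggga

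Isg15 encodes a ubiquitin-like protein, and the other genes of its system attach or remove it. Isg15 was at 56.1 FPKM for WT and 85.0 for the knockout before IL-4, and at 13.2 and 15.9 after 24 h of it. Usp18, the protease that removes ISG15 and also dampens the interferon receptor, was at 10.4 FPKM before and 5.63 after IL-4 in WT, and at 16.1 before and 6.96 after in the knockout. Herc6, a ligase for ISG15 in mouse, was at 6.90 (WT) and 9.95 FPKM (knockout) before IL-4 and at 2.86 and 2.98 FPKM after it. These 3 genes were above WT in the knockout at both times, by 1.44 to 1.54 times at 0 h and by 1.04 to 1.24 times at 24 h. Trim25, the ligase that activates RIG-I, was at 48.8 FPKM for WT and 61.8 for the knockout before IL-4, and at 45.9 and 49.5 after 24 h of it, so its WT level at 24 h was 94.1% of that at 0 h. Isg15 is shown because 3 overlapping matches to the ISRE letters run together in its promoter (chr4:156200819-156200918, − strand):
Isg15: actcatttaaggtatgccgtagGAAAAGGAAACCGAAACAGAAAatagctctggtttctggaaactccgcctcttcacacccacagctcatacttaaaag

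Rsad2 and Cmpk2 lie next to each other on chromosome 12 (26442746 to 26479837), on opposite strands. Rsad2 encodes viperin, which makes a nucleotide that ends viral RNA chains, and Cmpk2 encodes a mitochondrial nucleotide kinase. Rsad2 was at 27.1 FPKM before and 2.89 after IL-4 in WT, and at 57.2 before and 4.06 after in the knockout. Cmpk2 was at 12.9 (WT) and 30.3 FPKM (knockout) before IL-4 and at 2.94 and 3.56 FPKM after it. At 0 h the knockout was 2.11 and 2.35 times as high as WT, and at 24 h it was 1.40 and 1.21 times as high. Samhd1, which encodes an enzyme that depletes DNA building blocks, was at 89.2 FPKM for WT and 110.0 for the knockout before IL-4, and at 82.3 and 98.5 after 24 h of it, and differed little after IL-4 in either genotype. Isg20, an RNA exonuclease gene, was at 5.26 FPKM before and 0.42 after IL-4 in WT, and at 8.14 before and 0.92 after in the knockout. The promoter of Rsad2 (chr12:26456453-26456582, − strand) holds 1 match:
Rsad2: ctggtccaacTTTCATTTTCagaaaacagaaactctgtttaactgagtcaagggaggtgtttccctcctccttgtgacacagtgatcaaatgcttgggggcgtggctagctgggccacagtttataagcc

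The chemokine gene Cxcl10, whose product attracts T cells, was low in all libraries, at 3.11 (WT) and 8.52 FPKM (knockout) before IL-4 and at 0.26 and 0.20 FPKM after it. The knockout was 2.74 times as high as WT at 0 h and no higher at 24 h, where its levels stood for an estimated 12.2 and 9.3 fragments. Its responses were −1.71 and −2.98, so after Ifit1bl1 it had the largest difference between the responses (−1.27). Exons of Cxcl10 overlap those of Art3 on the other strand. Its promoter (chr5:92348890-92349109, − strand) is shown because the match lies far from the start, more than 200 bases before it:
Cxcl10: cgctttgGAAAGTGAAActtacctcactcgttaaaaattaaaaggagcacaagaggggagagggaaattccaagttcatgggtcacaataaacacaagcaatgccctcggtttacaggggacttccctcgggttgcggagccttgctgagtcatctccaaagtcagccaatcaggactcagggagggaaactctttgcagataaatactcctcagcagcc

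All 3 genes grouped here as restriction at membranes were 2-fold lower after IL-4 in both genotypes. Ifitm3, which blocks the fusion of viruses in endosomes, was at 596 FPKM for WT and 769 for the knockout before IL-4, and at 79.2 and 121 after 24 h of it. It was the most abundant of the 44 genes at 0 h, and at 24 h the knockout was 1.53 times as high as WT. Bst2, which encodes tetherin, was at 262 FPKM before and 130.1 after IL-4 in WT, and at 291 before and 106 after in the knockout. The knockout was the higher in Bst2 at 0 h and the lower at 24 h. Rtp4 was at 26.0 (WT) and 39.3 FPKM (knockout) before IL-4 and at 6.96 and 7.23 FPKM after it, with a knockout to WT ratio of 1.51 at 0 h and 1.04 at 24 h.

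Xaf1, a gene linked to cell death, was among the genes that stayed apart between genotypes. It was at 11.7 FPKM for WT and 27.5 for the knockout before IL-4, and at 3.41 and 6.92 after 24 h of it, so the knockout was 2.34 times WT at 0 h and 2.03 times at 24 h (log2 1.16 and 0.84). Parp14, which encodes an ADP-ribosyltransferase, was at 76.5 FPKM before and 24.0 after IL-4 in WT, and at 101 before and 30.9 after in the knockout. Trim30a, a negative regulator of Toll-like receptor signalling, was at 73.1 (WT) and 78.3 FPKM (knockout) before IL-4 and at 22.1 and 22.0 FPKM after it, with the genotypes alike at both times. Ifi44 was at 13.3 FPKM for WT and 11.3 for the knockout before IL-4, and at 1.70 and 0.87 after 24 h of it, below WT in the knockout at both times.

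**Figure D3:**
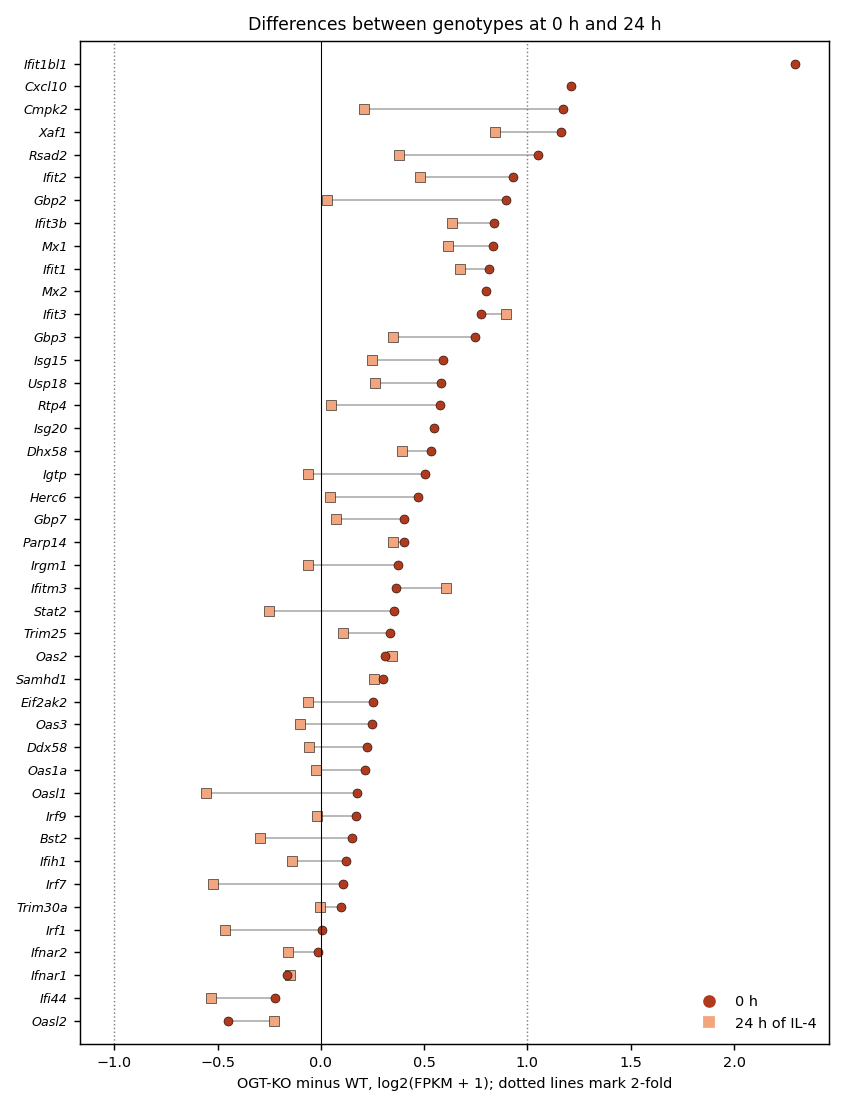
Knockout minus WT difference in log2 of FPKM + 1 for each of the 43 genes, at 0 h (circles) and after 24 h of IL-4 (squares, absent for the 4 genes under 1 FPKM in both 24 h libraries), ordered by the 0 h value; dotted lines mark 2-fold. At 0 h 39 circles lie to the right of 0, and at 24 h the squares spread from −0.56 to 0.90.

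Between genotypes at 0 h, the knockout was above WT in 39 of 43 genes, where 40.5% of all 11479 genes tested were. The median was 0.40, beside −0.05 over all genes. With libraries rescaled by their median ratio it was above in 40 of 43, beside 52.3% of all genes. Past 2-fold were 5 genes, namely Ifit1bl1, Cxcl10, Cmpk2, Xaf1 and Rsad2, where 0.88% of all genes were 2-fold higher, and none was 2-fold lower (0.871% of all genes). By 0.75 or more on the log2 scale, 12 genes were higher, against 1.7% of all genes. These were the 5 above, the other 4 IFIT genes, Mx1, Mx2 and Gbp2. The 4 genes below WT were Oasl2, Ifi44, Ifnar1 and Ifnar2. Under that rescaling Ifnar2 changed sign, and with totals made equal Irf1 did, each from a value within 0.02 of 0. With a pseudocount of 5, Ifit1bl1 alone passed 2-fold. Some marker lists of other cell types also differed between genotypes at 0 h, in the other direction. B cell and plasmacytoid dendritic cell markers did not, with 1 higher and 1 lower in each list. Macrophage markers were split too, 5 and 5. Neutrophil markers were lower in the knockout in 10 of 11 (median −0.47, 1 past 2-fold) and monocyte markers in 7 of 8 (−0.74, 2 past 2-fold). Fibroblast markers were lower there in 4 of 4 (−0.56) and T and NK cell markers in 2 of 2 (−0.27). The part of these lists in the values of the interferon-stimulated genes was not tested.

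After 24 h of IL-4 the lead of the knockout over WT was smaller or absent over the genes as a group. The knockout was above WT in 21 of 39 genes kept, beside 41.4% of all 11302 genes, and the median was 0.04, beside −0.05. Rescaled by the median ratio it was above in 24 of 39, beside 51.8% of all genes. None of the 39 passed 2-fold in either direction, where 0.832% of all genes were higher and 0.619% lower. By 0.5 or more on the log2 scale, Ifit1, Ifit3, Ifit3b, Mx1, Ifitm3 and Xaf1 were higher, which is 6 of 39 beside 3.96% of all genes. Irf7, Oasl1 and Ifi44 were lower by that much, beside 3.84%. At 24 h Ifit3b was under 1 FPKM in WT (0.60) and Ifi44 was under it in the knockout (0.87). Each passed the filter through the other genotype alone, so the filter fixed its direction in every count at 24 h. Rescaling by the median ratio turned the sign of Irf9, Oas1a and Trim30a, all within 0.03 of 0. With a pseudocount of 0.1, Ifit3 (1.03) and Ifit3b (1.18) came past 2-fold. With totals made equal, Ifit1bl1 was kept at 24 h and was past 2-fold (1.10), against WT still listed at 0.

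Side by side, 21 of the 39 genes kept at both times were above WT in the knockout at 0 h and at 24 h, beside 25.1% of all genes. Another 14 were above WT at 0 h and below it at 24 h, beside 15.1% of all genes. That group held Stat2, Irf9, Irf7, Irf1, Ifih1, Ddx58, Eif2ak2, Oas1a, Oas3, Oasl1, Igtp, Irgm1, Bst2 and Trim30a. Irf1 leaves this group with totals made equal, and Irf9, Oas1a and Trim30a leave it when rescaled by the median ratio, since one of their values lies near 0. Only Oasl2, Ifi44, Ifnar1 and Ifnar2 were below WT at both times, and no gene was below at 0 h and above at 24 h. The 0 h and 24 h differences share no library and had a Pearson r of 0.74 over these 39 genes, beside 0.40 over 10781 genes, again as a description across genes.

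The difference between the responses combines all 4 libraries and repeats the values above. It was negative, meaning a larger negative response in the knockout, in 38 of 43 genes, beside 49.1% of 12000 genes tested. The median was −0.31, beside 0.00 over all genes. The exceptions were Ifit3, Ifitm3, Oas2, Oasl2 and Ifnar1, none past 0.24. With totals made equal, Ifit3b (0.11) and Isg20 (0.11) joined them. Ifit3 turned to −0.18 with a pseudocount of 5, where Oas2 also turned negative. With one of 0.1, Ifit3b turned to 0.33, and Ifit1 and Isg20 also turned positive. As a share of the 0 h level, the knockout kept more than WT at 24 h in Ifit1, Ifit3b and Isg20. The shares in WT and the knockout were 7.1% and 7.5% (Ifit1), 1.2% and 1.7% (Ifit3b), and 8.1% and 11.3% (Isg20). The negative signs of these genes thus rest on the pseudocount of 1. Lower by 2-fold were Ifit1bl1 and Cxcl10, beside 1.16% of all genes, and none was 2-fold higher, beside 1.27%. The value of Ifit1bl1 rests on the level listed at 0 and came to −0.18 with a pseudocount of 0.1.

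**Figure D4:**
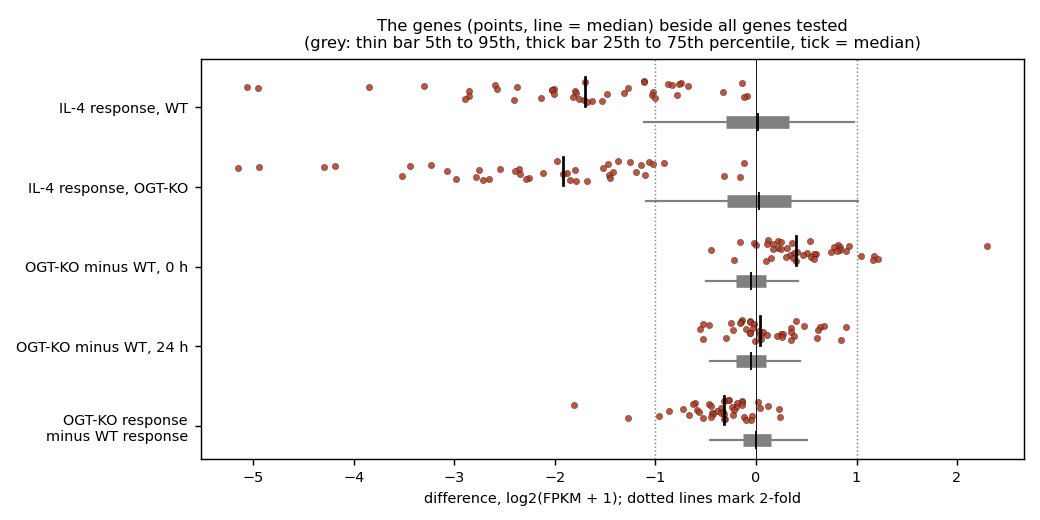
Differences in log2 of FPKM + 1 of the interferon-stimulated genes and regulators (red points, 1 a gene, black line at their median) in the 5 comparisons, above the spread of all genes tested (grey: 5th to 95th and 25th to 75th percentile, tick at the median). The points lie to the left in both IL-4 responses (medians −1.70 and −1.92), to the right in the knockout at 0 h (0.40) and around 0 at 24 h (0.04).

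Promoter windows, from 250 bases before to 50 bases after an annotated start, were found for 37 of the 44 genes in RefSeq (GRCm38.p6). No entry was used for Dhx58, Oas2, Mx1, Mx2, Usp18, Rtp4 and Parp14. The ISRE letters were in the windows of 21 of the 37 genes (56.8%), and in 51.1% of their 45 windows beside 3.44% of all 32851 windows. Of 33 matches, 27 began before the start and 22 of these within 130 bases of it. In 9 genes a window held 2 or more matches, which overlap in some. Ifih1, Ddx58, Eif2ak2 and Ifitm3 held theirs only after the start. The letters TTCNNNGAA, a short form of the gamma-activated site (GAS) that STAT dimers bind, were in 12 of the 37 genes and in 26.7% of their windows, beside 8.3% of all windows. These 12 were Ifnar1, Ifnar2, Irf1, Ifit2, Oas1a, Gbp7, Igtp, Samhd1, Isg20, Bst2, Ifitm3 and Eif2ak2. A match is a description of letters and not evidence of binding.

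The genes with and without the ISRE letters had like IL-4 responses. The median was −1.70 over 21 genes with them and −1.53 over 15 without in WT, and −1.98 and −1.80 in the knockout. The knockout minus WT difference at 0 h had medians of 0.40 and 0.17, with ranges of 0.10 to 2.30 and −0.45 to 1.17. At 24 h the medians were −0.01 over 19 genes and −0.08 over 14. Cmpk2, Xaf1 and Ifit2, which were among the genes highest over WT in the knockout at 0 h, do not hold the letters in these windows. For comparison, 100 bases before the start of Ifnar1 (chr16:91485115-91485214, + strand), whose level differed little, hold no match to the ISRE letters:
Ifnar1: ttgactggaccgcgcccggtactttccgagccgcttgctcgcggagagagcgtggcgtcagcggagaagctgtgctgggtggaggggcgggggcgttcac

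**Figure D5:**
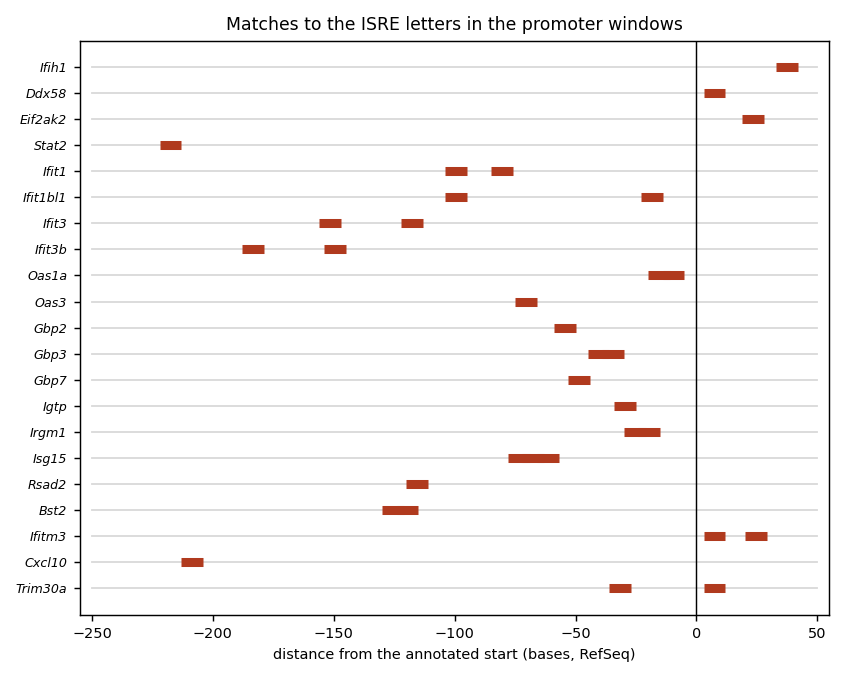
Position of each match to the ISRE letters (red, 10 bases or more where matches overlap) in the promoter windows of the 21 genes that hold them, in bases from the annotated RefSeq start (vertical line); the windows of Ifit1bl1 and Trim30a are drawn together. Matches of 22 of 33 begin within 130 bases before the start, and those of Stat2 and Cxcl10 lie more than 200 bases before it.

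The interferon genes themselves were at or near 0. None of 21 interferon genes reached 1 FPKM in any library, and 19 were listed at 0 in all 4. Ifnb1 was listed at 0.096 FPKM for WT before IL-4 and at 0 in the others. Ifng was listed at 0 before IL-4 and at 0.092 (WT) and 0.038 FPKM (knockout) after it. Transcripts of interferon were thus not detectable above these values in cultures whose interferon-stimulated genes summed to between 690.0 and 3111 FPKM.

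In the rest of the pathway, 27 genes of signalling and induction were measured. In WT 6 were 2-fold lower after IL-4, beside 6.26% of all genes, and none 2-fold higher, beside 4.76%, with a median of −0.20. In the knockout 7 were lower, beside 5.99%, and none higher, beside 5.16%, with a median of −0.19. Tlr9, a sensor of DNA in endosomes, was at 35.2 FPKM before and 6.20 after IL-4 in WT, and at 46.7 before and 7.74 after in the knockout. Zbp1, a sensor of nucleic acid in Z form, was at 18.5 (WT) and 29.3 FPKM (knockout) before IL-4 and at 5.95 and 6.93 FPKM after it, so the pattern was lower after IL-4 and higher in the knockout at 0 h. Trex1, the DNA exonuclease that keeps self DNA from triggering interferon, was at 47.9 FPKM for WT and 69.3 for the knockout before IL-4, and at 10.4 and 30.4 after 24 h of it, and passed 2-fold between genotypes at 24 h (log2 1.46). Tlr7, a sensor of RNA in endosomes, was at 34.5 FPKM before and 21.9 after IL-4 in WT, and at 33.8 before and 11.2 after in the knockout, so the genotypes were close at 0 h and the knockout was the lower at 24 h (−0.91). The kinase gene Ikbke was at 26.7 (WT) and 23.8 FPKM (knockout) before IL-4 and at 10.4 and 9.56 FPKM after it. Jak1, Tyk2, Irf3 and Mavs had differences no larger than 0.21 on the log2 scale in the 4 comparisons of single libraries.

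Of 17 genes that dampen the pathway, 13 had negative differences after IL-4 in WT and 10 in the knockout, beside 48.0% and 47.3% of all genes. In each genotype 1 was 2-fold lower and 2 were 2-fold higher, with medians of −0.26 in WT and −0.11 in the knockout. Of all genes 4.76% and 5.16% were 2-fold higher. The gene lower was Socs3 in WT (−1.10, against −0.96 in the knockout) and Nlrc5 in the knockout (−1.11, against −0.80 in WT). The share of 1 in 17 is near that of all genes (6.26% and 5.99%). Socs1, the inhibitor of receptor kinases that is induced by many cytokines, was at 0.43 FPKM for WT and 1.02 for the knockout before IL-4, and at 18.7 and 14.7 after 24 h of it. Ptpn2, a phosphatase of STAT proteins, was at 7.5 FPKM before and 16.8 after IL-4 in WT, and at 7.60 before and 17.1 after in the knockout. These 2 genes were the only ones of the 17 that were 2-fold higher after IL-4 in either genotype. Any link between them and the interferon-stimulated genes was not tested. Nlrc5 was at 8.39 (WT) and 11.6 FPKM (knockout) before IL-4 and at 4.39 and 4.82 FPKM after it. Ptpn6 was at 115 FPKM for WT and 129.7 for the knockout before IL-4, and at 65.3 and 70.2 after 24 h of it. Tnfaip3 was at 7.58 FPKM before and 6.18 after IL-4 in WT, and at 4.06 before and 7.08 after in the knockout, and Irf2bp2 at 26.4 (WT) and 21.8 FPKM (knockout) before IL-4 and at 17.0 and 14.3 FPKM after it, with differences short of 2-fold.

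A list of 82 other interferon-stimulated genes in the table, which also holds Zbp1, had the same directions in its medians after IL-4 and at 0 h. In WT 46 of 79 kept were 2-fold lower after IL-4 and none 2-fold higher (median −1.14), beside 6.26% and 4.76% of all genes. In the knockout 52 of 80 were lower and none higher (−1.40), beside 5.99% and 5.16%. At 0 h the knockout was above WT in 67 of 80 (median 0.28), beside 40.5% of all genes. Slfn9 alone was past 2-fold there, beside 0.88% of all genes. At 24 h the knockout was above WT in 35 of 73 (−0.02), beside 41.4% of all genes. At 24 h 2 of these genes were 2-fold lower in the knockout, Iigp1 and Ly6e, beside 0.619% of all genes. The immunity-related GTPase gene Iigp1 was at 22.6 FPKM for WT and 29.0 for the knockout before IL-4, and at 3.49 and 1.13 after 24 h of it. Ly6e, which encodes a surface protein that affects viral entry, was at 168 FPKM before and 48.4 after IL-4 in WT, and at 193 before and 23.5 after in the knockout. Ifi213 was at 17.1 (WT) and 16.6 FPKM (knockout) before IL-4 and at 1.28 and 1.17 FPKM after it, with no difference between genotypes past 0.07. Tgtp2, another immunity-related GTPase gene, was at 15.7 FPKM for WT and 20.3 for the knockout before IL-4, and at 2.997 and 1.82 after 24 h of it. Ifi206 was at 20.4 FPKM before and 3.06 after IL-4 in WT, and at 25.3 before and 2.87 after in the knockout, and Ifitm6 at 8.37 (WT) and 11.7 FPKM (knockout) before IL-4 and at 1.48 and 1.01 FPKM after it.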

How the data were processed

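RNA-seq was measured in 4 libraries, 1 for each genotype and time, grouped by the sample descriptions. The deposited table gives FPKM for 52550 Ensembl genes with no unit in its header. FPKM was read from the values, whose column totals differ between libraries and so are not TPM. The submitters' processing notes name STAR and StringTie and the build GRCm38 (mm10). Versions, annotation release and strand setting were not given there. No counts were used. From genes of 1 transcript and 1 exon, a transcript of 2 kb at 1 FPKM was estimated to stand for 40.8 to 44.8 fragments; this is an estimate, and it covers counting error only.

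Symbols came from a table of gene names, for 52403 genes, and genes sharing a symbol were summed to 52476 names. Differences are log2 ratios of FPKM + 1, a pseudocount of 1. A gene was kept where either library compared reached 1 FPKM, and called at 2-fold. No p-value is given. Shared 50-base stretches and exon overlaps were taken from GENCODE M21 (GRCm38), and promoters from RefSeq, with Python 3.11.15, pandas 2.3.3 and Biopython 1.88. The summed levels of near-identical pairs were added after seeing the data. The difference and call steps were tested on simulated data. Values in all libraries were to be given for regulators, for members past 2-fold between genotypes and for the 10 largest responses in each genotype; from other lists up to 6 genes at 5 FPKM or more were named, those with the largest differences. A gene that this rule names is not reported here. The members, lists and rules were chosen with earlier results of these data known.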

Additional observations from a re-analysis of the deposited data

Results flagged for a closer look

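In 6 genes the difference between genotypes took opposite signs at 0 h and at 24 h of IL-4, with both sizes at 0.1 or more on the log2 scale, a bound set after the values were seen. With 1 library a group these differences were not tested. Ifih1 went from 0.12 at 0 h to −0.14 at 24 h, a shift of −0.26. Stat2 went from 0.35 at 0 h to −0.25 at 24 h, a shift of −0.60. Irf7 went from 0.11 at 0 h to −0.52 at 24 h, a shift of −0.63. Oas3 went from 0.25 at 0 h to −0.10 at 24 h, a shift of −0.35. Oasl1 went from 0.17 at 0 h to −0.56 at 24 h, a shift of −0.73. Bst2 went from 0.15 at 0 h to −0.30 at 24 h, a shift of −0.45. In each of these genes the knockout was above WT at 0 h and below it at 24 h.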

How the results depend on the processing

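The counts of genes lower after IL-4 stayed within 1.5 times of 33 in WT and 39 in the knockout under all 7 alternatives, from 23 to 39 and from 33 to 40. Counts between genotypes were less stable. At 0 h 5 genes were 2-fold higher in the knockout, against 1 with a pseudocount of 5 and 14 at a threshold of 1.5-fold. At 24 h none was, against 2 with a pseudocount of 0.1, 1 with libraries rescaled to the same total, which also multiplies the values and so lessens the weight of the pseudocount, and 6 at 1.5-fold. For the difference between responses, 2 genes were 2-fold lower, against 1 with a pseudocount of 0.1, 1 with a pseudocount of 5 and 9 at 1.5-fold. Fewer calls with the larger pseudocount and more at the lower threshold follow from their construction. No called value turned its sign. The share of genes whose promoter holds the ISRE letters went from 56.8% to 64.9% with the shorter letters GAAANNGAA or TTCNNTTTC, which 8.56% of all windows hold. Over all genes, calls in either direction in the WT response, the knockout response, the knockout at 0 h, the knockout at 24 h and the difference between responses numbered 1288, 1290, 201, 164 and 291. With a pseudocount of 5 they were 557, 592, 43, 39 and 72, and with one of 0.1 they were 1971, 2031, 438, 388 and 662. With equal totals they were 2151, 2210, 641, 559 and 920, at 1.5-fold 3115, 3143, 702, 608 and 831, and with a filter at 5 FPKM 979, 964, 106, 93 and 141. No paired analysis was possible because each group held 1 sample and the labels carry no replicate numbers. Depth limits the genes under 1 FPKM at 24 h, among them Cxcl10 and Isg20, whose levels there stand for an estimated 9.3 to 20.3 fragments.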

Other observations

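A few other interferon-linked genes outside the naming rule were singled out after their values were seen. Slfn9 was at 7.997 FPKM for WT and 18.9 for the knockout before IL-4, and at 5.82 and 6.78 after 24 h of it, so it was past 2-fold between genotypes at 0 h (1.15) and not at 24 h (0.19). Ube2l6, which encodes the enzyme that carries ISG15 to its ligases, was at 13.8 FPKM before and 6.77 after IL-4 in WT, and at 20.8 before and 14.0 after in the knockout, with the larger genotype difference at 24 h (0.95). Cgas, which encodes the sensor of cytosolic DNA, was at 2.78 (WT) and 5.31 FPKM (knockout) before IL-4 and at 2.95 and 4.52 FPKM after it, and differed little after IL-4. Fcgr1, a macrophage receptor gene for antibodies that interferons also induce, was at 172 FPKM for WT and 273 for the knockout before IL-4, and at 35.7 and 55.7 after 24 h of it, and was higher in the knockout at both times (0.66 and 0.63).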
